A study of Arabidopsis thaliana with 24 samples.

Results

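Signals of 4 cell wall loosening genes were followed through all 8 groups of an array study of Arabidopsis thaliana seedlings. They were the expansin genes EXPA4 (AT2G39700, probe set 267590_at), EXPA8 (AT2G40610, 255822_at) and EXPA18 (AT1G62980, 261099_at) and the xyloglucan endotransglucosylase/hydrolase gene XTH19 (AT4G30290, 253608_at). Members were chosen as the probe sets that the platform table links to those gene names, which gave 4 of 22810 probe sets, and all 4 passed the filter on dim probe sets and were tested.

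Expansins are secreted proteins that loosen the contacts between cellulose and the other wall polymers without cutting them, so that a wall under turgor can extend. Xyloglucan endotransglucosylase/hydrolases (XTHs) cut chains of xyloglucan, the polymer that coats and tethers cellulose, and join the cut end to another chain or to water. Both families are large and are known for their part in the growth of hypocotyls, roots and root hairs. A seedling raised in darkness normally makes a long hypocotyl and a short root, and a seedling raised in light does the reverse.

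The mutants lack a subunit of the COP9 signalosome, a complex that takes the small protein NEDD8 off cullin-based ubiquitin ligases and whose mutants look light-grown in darkness. The groups were csn3-1 (csn3 here), csn4-1 (csn4), a line whose label names csn5a-2 and csn5b mutations (csn5-labelled) and wild type (WT) of the Col accession, each grown in light and in darkness. Whole seedlings were taken at 7 days of age, and each group held 3 arrays that the labels call independent biological replicates. The label of the light-grown WT names it as the wild type belonging to csn4-1.

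No probe set here names CSN3, CSN4 or CSN5A alone. The CSN5B probe set ran from 651 to 895 in csn5-labelled light arrays and from 1573 to 1897 in csn5-labelled dark arrays, against 110.0 to 123 in WT light and 118 to 177 in WT dark. It was thus higher and not lower in these arrays, and as its place relative to the mutation is not known here it checks no label. The csn4 light and WT light arrays carry sample numbers from an earlier range than the other 6 groups. Light against dark in WT and in csn4, and csn3 or csn5-labelled against WT in light, therefore run across that split and cannot be told apart from it. The same holds for csn3 or csn5-labelled against csn4 in light. In each of the 24 arrays, between 60.3% and 76.8% of probe sets had a signal of 100 or more. The ratio of the 3′ to the 5′ actin control probe sets, which rises as RNA is degraded or copied incompletely, was 5.17 to 48.9 in csn light arrays against 2.44 to 3.12 in WT light, and 6.12 to 27.5 in csn dark arrays against 2.26 to 21.3 in WT dark.

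Signals below are MAS5 intensities scaled so that every array has a trimmed mean of 500. They are not comparable between genes, since probe sets differ in brightness. Differences are on the scale of log2(signal + 50), with standard errors from 1 limma model of all 24 arrays, and understate the ratio of dim signals. A gene was called at a limma adjusted p under 0.05, by Benjamini-Hochberg over 18751 probe sets, when its log2 difference reached 1 in either direction.

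EXPA8 was bright in WT and mostly below the filter level of 100 in the mutants, in both growth conditions. Light-grown csn3 seedlings gave signals of 4.6, 26.8 and 76.2, csn4 gave 86.7, 96.5 and 52.4 and the csn5-labelled line gave 28.5, 55.8 and 113, against 977, 653 and 861 in WT. Dark-grown csn3 gave 53.3, 54.1 and 62.9, csn4 58.2, 114 and 154 and the csn5-labelled line 11.3, 141 and 43.8, against 1702, 1676 and 1379.7 in WT. Every mutant array lay below every WT array of the same growth condition, and 1 of 9 mutant arrays in light and 3 of 9 in darkness reached 100. The mean signal over the 9 mutant arrays was 60.0 ± 36.0 (SD) in light, against 830.0 ± 164 (SD, n = 3) in WT, and 76.9 ± 47.9 in darkness, against 1586 ± 179 in WT. The dimmest WT array stood above the brightest mutant array by a factor of 5.78 in light and 8.98 in darkness, and since most mutant signals are dim no closer ratio can be read. EXPA8 fell in each line. The log2 difference from WT in light was -3.43 ± 0.35 in csn3, -2.78 ± 0.35 in csn4 and -2.98 ± 0.35 in csn5-labelled seedlings, and in darkness -3.93 ± 0.35, -3.41 ± 0.35 and -3.98 ± 0.35. The highest of their 6 limma adjusted p-values was 2.92e-07, in csn4 light, the comparison within 1 range of sample numbers.

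EXPA4 was also lower in every mutant array than in any WT array of its growth condition. Light-grown csn3 seedlings gave signals of 195, 206 and 206, csn4 gave 68.7, 189 and 253 and the csn5-labelled line gave 204, 219 and 311, against 1232, 1325 and 1562 in WT. Dark-grown csn3 gave 67.9, 275 and 227, csn4 228, 282 and 122 and the csn5-labelled line 267, 304 and 298, against 2859, 801 and 1574 in WT. The mutants kept a signal of at least 100 in 8 of 9 arrays in light and in 8 of 9 in darkness, so unlike EXPA8 most of these values lie above the filter level. The 3 WT light arrays lay closer together (SD 170.1) than the 3 WT dark arrays (SD 1039). EXPA4 fell in each line, by log2 differences of -2.49 ± 0.36 in csn3, -2.79 ± 0.36 in csn4 and -2.28 ± 0.36 in csn5-labelled seedlings in light, and of -2.86 ± 0.36, -2.66 ± 0.36 and -2.23 ± 0.36 in darkness. All 6 passed, with limma adjusted p at most 1.15e-05. The lowest WT array stood above the brightest mutant array by a factor of 3.97 in light and 2.64 in darkness.

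EXPA18, an expansin known from root hair cells, separated the lines from WT in darkness but only in part in light. Dark-grown csn3 seedlings gave signals of 50.4, 10.7 and 38.2, csn4 gave 98.7, 7.4 and 18.0 and the csn5-labelled line gave 33.7, 8.4 and 9.1, against 477, 299.5 and 272 in WT. Light-grown csn3 gave 44.0, 4.5 and 77.0, csn4 97.1, 20.7 and 21.2 and the csn5-labelled line 8.6, 4.0 and 131, against 122, 145 and 144 in WT. The groups did not overlap in darkness, whereas in light 1 csn5-labelled array was brighter than the dimmest WT array. A signal of 100 was reached in 0 of 9 mutant arrays in darkness and 1 of 9 in light, so EXPA18 passed the filter through the WT arrays, its order among the mutant arrays cannot be read, and its differences say only that the mutants lay near or below the filter level where WT lay above it. In darkness EXPA18 fell in all 3 lines, with log2 differences of -2.26 ± 0.43 (csn3), -2.22 ± 0.43 (csn4) and -2.56 ± 0.43 (csn5-labelled) and limma adjusted p at most 0.000126.

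In light EXPA18 fell in csn3 (log2 -1.11 ± 0.43, limma adjusted p = 0.0435) and in csn5-labelled seedlings (-1.17 ± 0.43, limma adjusted p = 0.0328), and its value in csn4 was -1.05 ± 0.43 (limma adjusted p = 0.0512). These values lie at the threshold. The csn3 call was lost without csn3 light replicate 1 (-1.17) or 2 (-0.78), without WT light replicate 1 (-1.17), 2 (-1.08) or 3 (-1.08), or without WT dark replicate 3 (-1.11). The csn5-labelled call was lost without replicate 1 (-0.92) or 2 (-0.86) of that group or without WT light replicate 1 (-1.23), 2 (-1.14) or 3 (-1.14). The csn4 value passed without csn4 light replicate 1 (-1.40), and passed at an unchanged -1.05 without any 1 of 6 arrays of other groups, which were csn3 light replicate 2, csn5-labelled light replicates 2 and 3, csn3 dark replicate 2 and csn4 dark replicates 1 and 2. The mean of the 3 lines in light, -1.11 ± 0.35 (limma adjusted p = 0.0111), was lost only without csn3 light replicate 2, at -0.997.

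XTH19, which is known from roots and elongating hypocotyls, kept a clear signal in every mutant array. Dark-grown csn3 seedlings gave signals of 189.6, 329 and 201, csn4 gave 234, 824 and 711 and the csn5-labelled line gave 227, 323 and 135, against 1944, 1379 and 1828 in WT. Light-grown csn3 gave 426, 451 and 374, csn4 271, 570.1 and 605 and the csn5-labelled line 548, 448 and 416, against 1043, 755 and 733 in WT. No mutant array reached the level of a WT array in either condition, and the gap was narrow in light, where the dimmest WT array exceeded the brightest mutant array by a factor of 1.21. In darkness XTH19 fell in all 3 lines, with log2 differences of -2.63 ± 0.32 (csn3), -1.61 ± 0.32 (csn4) and -2.71 ± 0.32 (csn5-labelled) and limma adjusted p at most 0.000152. In light none of the lines passed: the log2 difference was -0.92 ± 0.32 in csn3 (limma adjusted p = 0.0224), -0.80 ± 0.32 in csn4 (0.0425) and -0.77 ± 0.32 in csn5-labelled seedlings (0.056), all short of the size threshold. The csn3 value in light passed without WT light replicate 3, at -1.01.

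**Figure D1:**
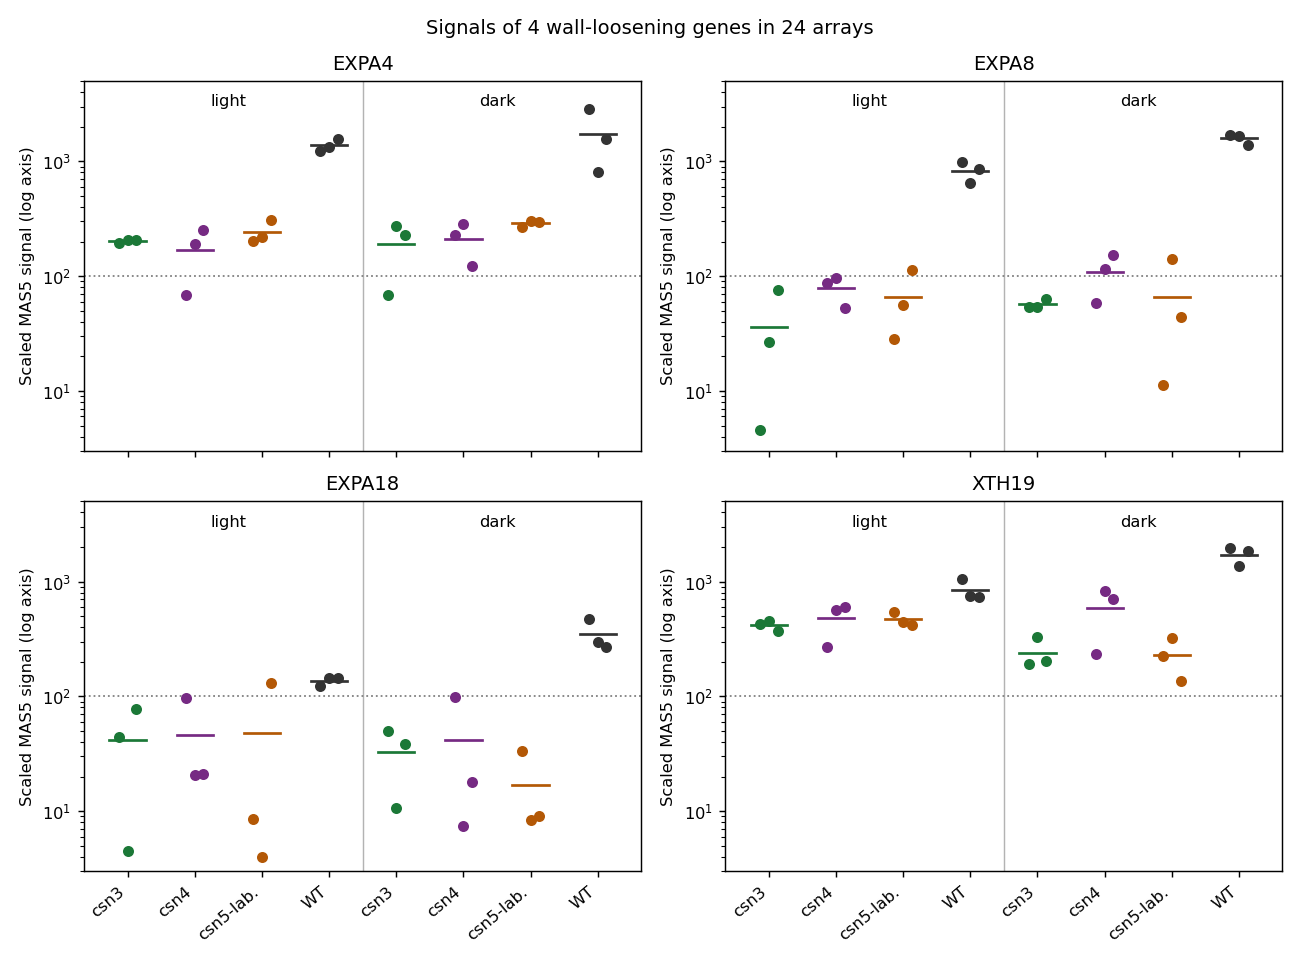
Scaled MAS5 signal (log axis) of EXPA4, EXPA8, EXPA18 and XTH19 in each of the 24 arrays, by genotype, with light-grown groups on the left and dark-grown groups on the right of each panel. Points are arrays, bars are means of 3 arrays and the dotted line is the filter level of 100. All mutant arrays lie below the WT arrays of the same condition except for 1 csn5-labelled array of EXPA18 in light, at 131.

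Counted by call, 4 of 4 members were lower in csn3, in csn4 and in csn5-labelled seedlings in darkness, where 12%, 11.2% and 13% of all tested probe sets were called lower. In light 3 of 4 were lower in csn3, 2 of 4 in csn4 and 3 of 4 in csn5-labelled seedlings, against 9.31%, 9.62% and 10.4% of all. All 9 mutant arrays lay below all 3 WT arrays for 4 of 4 members in darkness, as for 15.8% of all tested probe sets, and for 3 of 4 in light, as for 17.1%. The members were chosen with earlier results of these data known, so the shares beside these counts are background and no test. The counts also include EXPA18, which entered the fit through the WT arrays, so a lower value in the mutants was favoured in advance. Of the other 3 members, 3 were lower in each line in darkness and 2 in each line in light. The comparisons within 1 growth condition share their 3 WT arrays. For the mean of the lines, the median log2 difference of the 4 members was -2.47 in darkness and -1.82 in light, beside 0.18 and 0.18 over all tested probe sets. These shifts of all probe sets came to 0.05 in darkness and 0.02 in light with quantile normalization. The members stood below either level.

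**Figure D2:**
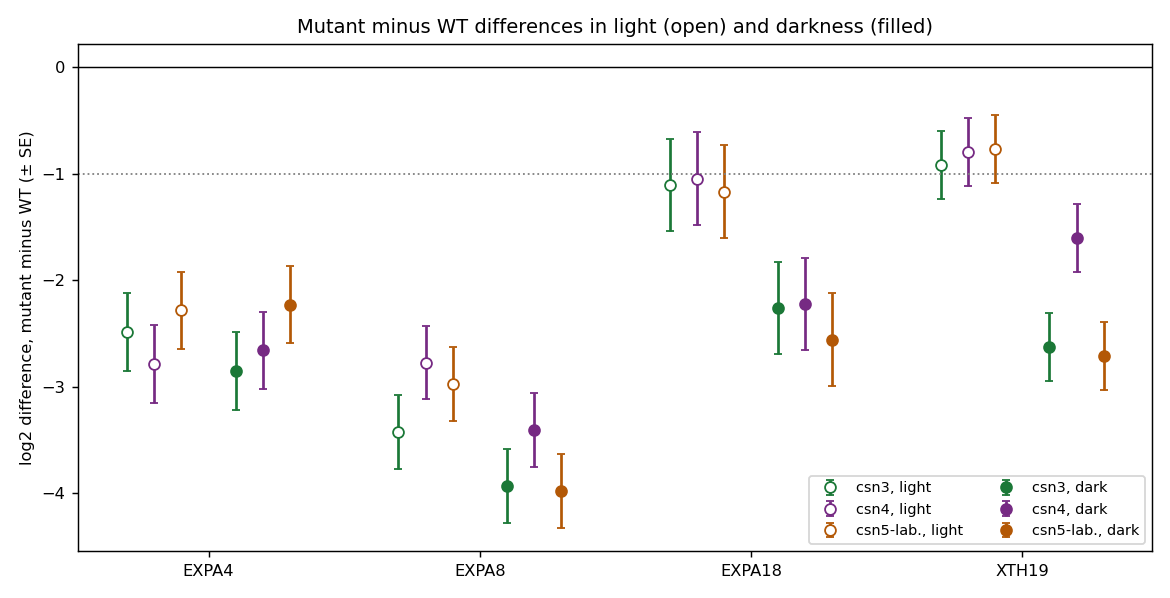
Difference of each mutant line from WT in log2(signal + 50), with standard errors of the limma fit, in light (open points) and in darkness (filled points). The dotted line marks the size threshold of -1. EXPA4 and EXPA8 lie at -2.23 or lower in all 6 comparisons, and for XTH19 the 3 light values lie above -1 and the 3 dark values below it.

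Light against darkness within a genotype asks whether the members respond to growth in light. In WT no member was called (0 of 4, against 9.77% of all tested probe sets called lower and 9.48% higher), although 3 of the 4 lay close to the size threshold on the lower side. The log2 difference in WT was -0.91 ± 0.35 for EXPA8 (limma adjusted p = 0.0419), -1.06 ± 0.43 for EXPA18 (0.0594) and -0.99 ± 0.32 for XTH19 (0.0167), and -0.17 ± 0.36 for EXPA4 (0.77). The 3 WT light arrays lay below the 3 WT dark arrays for EXPA8, EXPA18 and XTH19, and for EXPA4 the conditions overlapped. XTH19 passed without WT dark replicate 2 (-1.13) or WT light replicate 1 (-1.14), and EXPA18 passed at an unchanged -1.06 without csn4 dark replicate 1 or csn5-labelled light replicate 3. In WT this comparison runs across the ranges of sample numbers.

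In the mutants no member was called between light and darkness either, where few probe sets were: 0.331% of all were lower and 0.549% higher in csn3. The shares were 1.36% lower and 2.13% higher for csn4, and 1.38% lower and 2.44% higher for the csn5-labelled line. The values for EXPA4, EXPA8 and EXPA18 in the 3 lines lay between -0.40 and 0.33. Few mutant arrays reached 100 for EXPA8 (1 of 9 in light, 3 of 9 in darkness) or EXPA18 (1 of 9 and 0 of 9). For these 2 genes a value near 0 therefore cannot be read as a missing response to light. XTH19 stood at 0.72 ± 0.32 in csn3 (limma adjusted p = 0.273) and 0.95 ± 0.32 in csn5-labelled seedlings (0.0542), and its light arrays lay above its dark arrays in both lines. In csn4 it was -0.18 ± 0.32 (0.771), with overlapping conditions. Without csn5-labelled dark replicate 2 the csn5-labelled value passed, at 1.20. Light and dark arrays of csn3 and of the csn5-labelled line come from 1 range of sample numbers.

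The interaction, which is the light minus dark difference of a mutant less that of WT, was called for 1 of 4 members, XTH19, over the mean of the lines and in csn3 and csn5-labelled seedlings, and for 0 of 4 in csn4, where 9.81% of all tested probe sets were called higher for the mean of the lines, 7.93% for csn3, 8.78% for csn4 and 10.6% for the csn5-labelled line. For XTH19 it was 1.48 ± 0.37 over the mean of the lines (limma adjusted p = 0.00258), 1.70 ± 0.45 in csn3 (0.00668) and 1.94 ± 0.45 in csn5-labelled seedlings (0.00159). In csn4, the line for which the ranges of sample numbers cancel, it was 0.81 ± 0.45 (0.221) and did not pass. The XTH19 deficit of csn3 and csn5-labelled seedlings was thus smaller in light than in darkness. For the mean of the lines, EXPA18 gave 1.24 ± 0.50 (0.0635), EXPA8 0.72 ± 0.40 (0.195) and EXPA4 0.06 ± 0.42 (0.941). EXPA18 passed without csn4 dark replicate 1 (1.38), csn4 light replicate 2 (1.30), csn3 light replicate 2 (1.35) or csn5-labelled light replicate 1 (1.32) or 2 (1.34). In the csn5-labelled line EXPA8 gave 1.01 ± 0.49 (0.137), and passed without its dark replicate 2, at 1.45. Most mutant signals of EXPA18 and EXPA8 lay under the filter level in both conditions. Their interactions therefore largely return the WT light minus dark values (-1.06 and -0.91) with the sign turned. They cannot show whether the response of the mutants was changed.

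**Figure D3:**
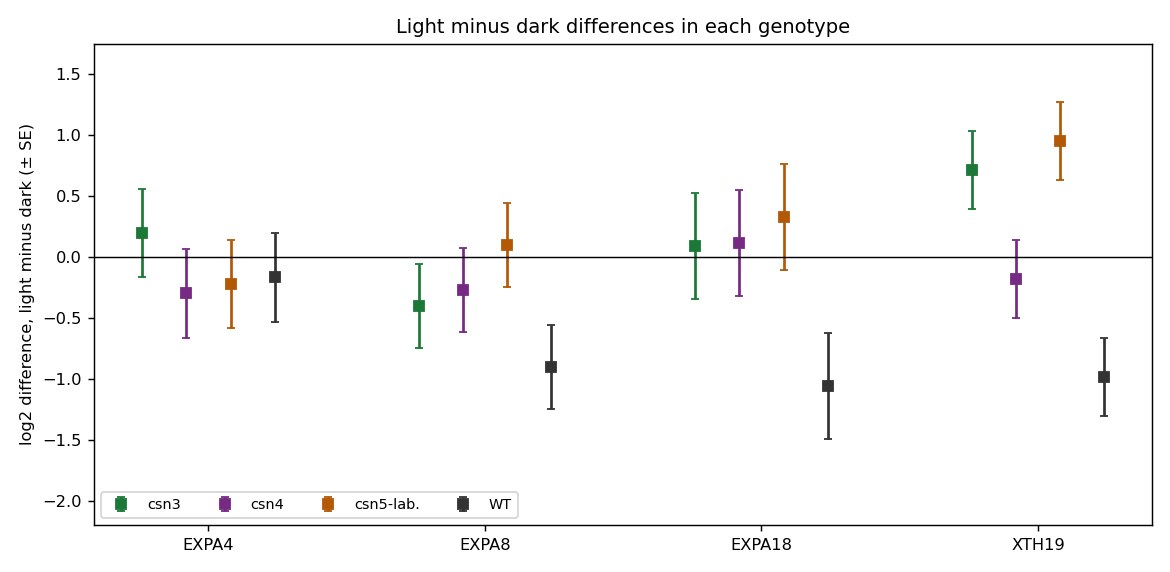
Light minus dark difference in log2(signal + 50) for each member in csn3, csn4, csn5-labelled and WT seedlings, with standard errors of the limma fit. For XTH19 the csn3 and csn5-labelled values lie above 0 at 0.72 and 0.95 and the WT value below it at -0.99, and for EXPA4 all 4 genotypes lie near 0.

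Dark-grown mutants were also set against light-grown WT, which asks how far the level of dark mutant seedlings lies from that of a seedling in light. All 4 members were lower (9.24% of all tested probe sets were), among them EXPA18, which passed the filter through the WT arrays. The log2 difference of the mean of the 3 dark lines from WT light was -2.87 ± 0.28 for EXPA8, -2.42 ± 0.30 for EXPA4, -1.33 ± 0.26 for XTH19 and -1.29 ± 0.35 for EXPA18, with limma adjusted p at most 0.00357. For XTH19 that mean covers unlike lines, since csn4 dark arrays of 234, 824 and 711 overlapped those of WT light (1043, 755 and 733). This comparison runs across the ranges of sample numbers.

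The 3 lines were compared with each other in each condition, 6 pairs in all, and 1 of the 24 member values passed. In light the pairs that include csn4 run across the ranges of sample numbers. Calls in either direction over all tested probe sets came to 0.448% for csn3 against csn4, 0.341% for csn3 against csn5-labelled and 1.97% for csn4 against csn5-labelled in darkness, and 0.0213%, 0.384% and 1.93% for the same pairs in light. XTH19 was higher in csn4 than in csn5-labelled seedlings in darkness, with signals of 234, 824 and 711 against 227, 323 and 135 (log2 1.102 ± 0.32, limma adjusted p = 0.0488). The lines overlapped, since csn4 dark replicate 1 stood below a csn5-labelled array, and the call was lost when any 1 of 15 of the 24 arrays was left out, namely csn4 dark replicates 2 (0.80) and 3 (0.90), csn5-labelled dark replicates 1 (1.13) and 3 (0.84) and, at an unchanged 1.102, WT dark replicates 1 and 3 and every light array of csn3, csn5-labelled and WT seedlings. XTH19 in csn3 against csn4 in darkness was -1.02 ± 0.32 (limma adjusted p = 0.134), and passed without csn4 dark replicate 1, at -1.52. For EXPA4, EXPA8 and EXPA18 the pairs differed by at most 0.65 in size, with standard errors of 0.35 to 0.43, and none passed.

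By mean log2 level over the 8 groups, WT dark stood first for all 4 members and WT light second. WT dark and WT light overlapped for EXPA4 and were apart for the other 3. Below them, each mutant group overlapped with its neighbour in the order for EXPA4, EXPA8 and EXPA18, so no order of the lines can be read. For XTH19 the order below WT was csn4 dark (9.16), csn5-labelled light (9.02), csn4 light (8.99), csn3 light (8.86), csn3 dark (8.15) and csn5-labelled dark (8.06), with neighbours overlapping except csn3 light and csn3 dark. The group means of the members ran together with Pearson correlations of 0.805 (EXPA4 and XTH19) to 0.962 (EXPA8 and EXPA18) over the 8 groups, which share the same arrays and the same WT to mutant step.

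The tested genes whose group means followed each member most closely, by Pearson correlation over the 8 groups among 10612 probe sets naming 1 gene, were as follows. They were AT3G02750 (0.996), AT2G04570 (0.995) and AT4G13180 (0.99) for EXPA4. For EXPA8 they were AT1G11360 (0.996), AT1G69080 (0.994) and P1R3 (0.993). For EXPA18 they were AT2G30540 (0.996), CYN, which encodes cyanase (0.99), and AT5G56980 (0.989). For XTH19 they were AT5G66950 (0.989), AT5G64880 (0.986) and GH9C1, a glycosyl hydrolase of family 9 (0.985). None of these 12 genes was shared between members.

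Among the other expansins, those that passed the test for the mean of the 3 lines were lower in the mutants. Of 36 listed expansin and expansin-like genes, 18 had a probe set of their own and 16 were tested, 13 of them other than the members. In darkness 4 of these 13 fell and 0 rose in the mean of the lines, with a median log2 difference of -0.41, beside 11.7% lower and 13.5% higher of all tested probe sets. In light 2 fell and 0 rose, with a median of -0.67, beside 9.21% lower and 11.4% higher. Line by line, the only calls in the other direction were in csn4 darkness, where 3 of the 13 fell and EXPB5 (1.54 ± 0.36, limma adjusted p = 0.00083) and EXPA24 (1.30 ± 0.49, 0.0303) rose. Both were singled out after their values were seen. WT arrays of EXPB5 stood at 51.2 or below and those of EXPA24 at 29.7 or below. Both genes thus passed the filter through mutant arrays, which favoured a rise in advance.

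EXPB3, a beta expansin, had the largest difference of the 13. Its lowest and highest signals were 33.5 and 146 over the csn3 and csn4 light arrays and 36.3 and 65.7 in csn5-labelled light arrays, against 596 and 897 in WT light. It fell, with log2 differences of -2.83 ± 0.29 in light (limma adjusted p = 4.91e-09) and -1.99 ± 0.29 in darkness (1.4e-06). Its interaction with light, -0.84 ± 0.41, did not pass (limma adjusted p = 0.13). EXPA16 fell too, at -1.82 ± 0.30 in light and -1.52 ± 0.30 in darkness (limma adjusted p at most 8.24e-05), with WT means of 257 and 172. Its brightest mutant signals were 125 in light (csn5-labelled) and 75.7 in darkness (csn3), while its WT arrays stood at 130.5 or more. EXPA16 passed the filter through the WT arrays, as EXPA18 did, so a fall was favoured in advance. The counts of other expansins called lower include it. EXPA9 fell by 1.74 ± 0.27 in darkness (limma adjusted p = 4.72e-06).

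The fourth that fell in darkness, EXPB1, was singled out after its values were seen. Its difference was -1.06 and fell short of the size threshold without WT dark replicate 1 (-0.90) or 3 (-0.96), csn3 dark replicate 1 (-0.93), csn4 dark replicate 1 (-0.87) or csn5-labelled dark replicate 1 (-0.99), with the replicate block (-0.994) and with an offset of 150 (-0.62). In light the count of 2 became 4 without csn4 light replicate 2 or csn5-labelled light replicate 3, as EXPA9 (-1.13 and -1.04) and EXLB1 (-1.003 and -1.11) passed. EXPA7, the other root hair expansin measured, gave -0.92 ± 0.28 in darkness for the mean of the lines (limma adjusted p = 0.00596) and did not pass. It fell in dark-grown csn3 (-1.08 ± 0.34, limma adjusted p = 0.00968) and csn5-labelled seedlings (-1.504 ± 0.34, 0.000569) and stood at -0.18 ± 0.34 in csn4. Its dark signals reached at most 87.4 in csn3 and 28.6 in csn5-labelled seedlings, under the filter level of 100. Without its WT arrays EXPA7 would not have passed the filter, so a fall was favoured in advance. EXPA15 (-0.87 ± 0.20) and EXLB1 (-0.98 ± 0.25) missed the size threshold in light (limma adjusted p at most 0.00212).

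Few XTH genes other than XTH19 could be tested. Of 33 listed XTH genes, 10 had a probe set of their own and 7 were tested, 6 of them other than XTH19. For the mean of the lines 1 of the 6 rose and 1 fell in darkness, where 13.5% of all tested probe sets were called higher and 11.7% lower. In light 1 of the 6 fell, where 9.21% of all did. The medians were -0.09 in darkness and -0.25 in light. XTH32 rose in darkness (1.37 ± 0.17, limma adjusted p = 1.13e-07) and stood at 0.08 in light. XTH16 fell in light for the mean of the lines (-1.28 ± 0.17, limma adjusted p = 3.78e-07), in csn3 (-1.40 ± 0.21) and in csn5-labelled seedlings (-1.55 ± 0.21), while csn4, compared within 1 range of sample numbers, gave -0.89 ± 0.21 and was not called. In darkness it stood at 0.83 ± 0.21 in csn5-labelled seedlings, -0.24 ± 0.21 in csn3 and 0.06 ± 0.21 in csn4, none of them called. XTH20 gave -0.69 ± 0.27 in darkness and -0.39 ± 0.27 in light, and XTH27 gave 0.69 ± 0.12 in darkness and -0.20 ± 0.12 in light, none of which passed.

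XTH18 lies next to XTH19 in the gene order of assembly TAIR10.1, and its difference from WT was called in darkness and not in light. In darkness its signals ran from 388 to 501 in csn3, from 426 to 709.8 in csn4 and from 408 to 453 in csn5-labelled seedlings, against 1046 to 1666 in WT. In light they ran from 876 to 1387 in csn3, from 659 to 1289 in csn4 and from 1178 to 1786 in csn5-labelled seedlings, against 695 to 793 in WT. In darkness the mutant arrays were all lower than WT, and in light those of csn3 and csn5-labelled seedlings were all higher and those of csn4 overlapped WT. XTH18 fell in darkness by 1.29 ± 0.19 on the log2 scale (limma adjusted p = 1.23e-06) and gave 0.61 ± 0.19 in light, under the size threshold (limma adjusted p = 0.00774). Its interaction was 1.90 ± 0.26 over the mean of the lines (limma adjusted p = 1.61e-06) and 1.49 ± 0.32 in csn4 (0.000872), where the ranges of sample numbers cancel. In csn3 and csn5-labelled seedlings XTH18 rose in light against darkness, by 1.13 ± 0.23 (limma adjusted p = 0.007) and 1.67 ± 0.23 (3.21e-05). Whether the probe sets of these related neighbours also bind the other's transcript was not tested.

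**Figure D4:**
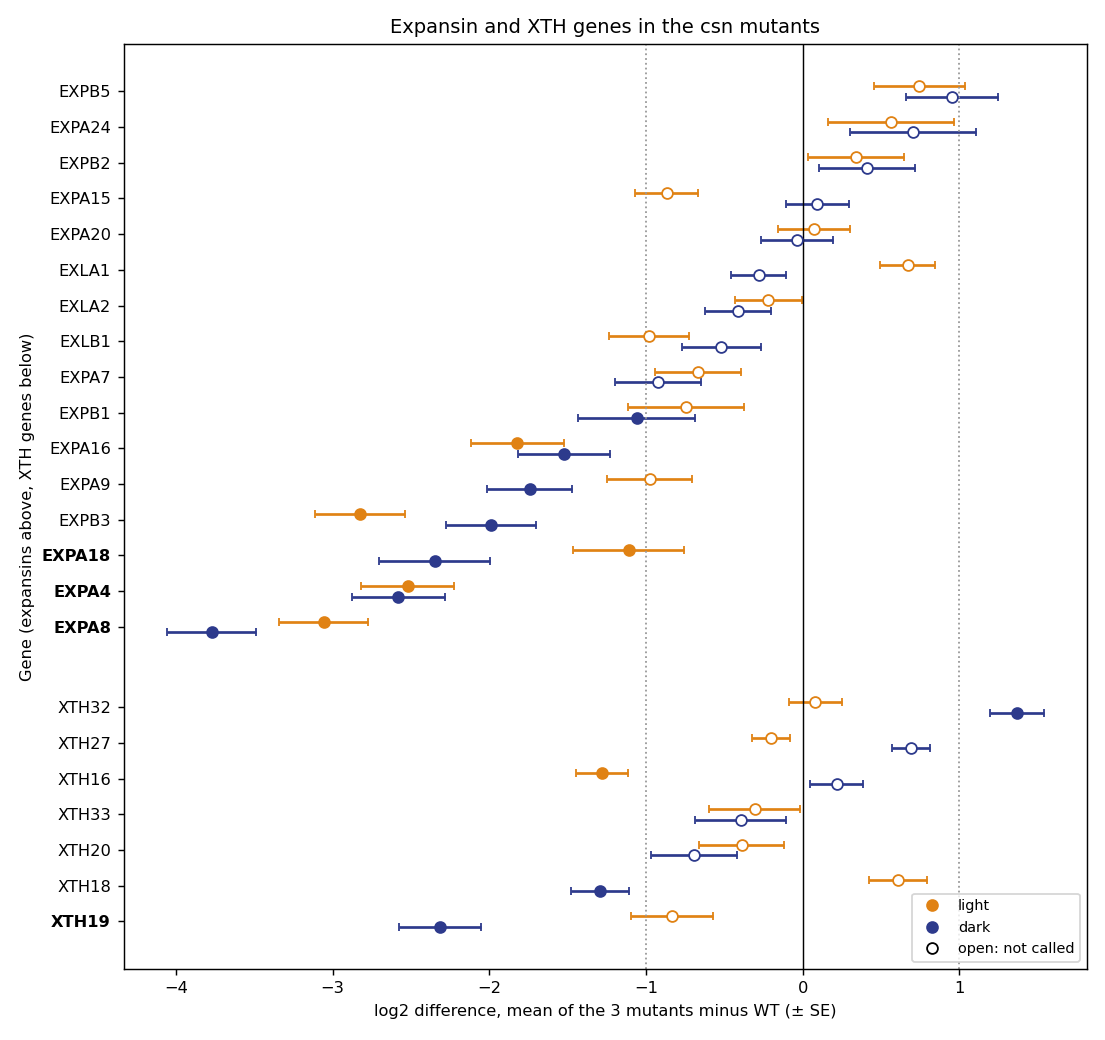
Difference of the mean of the 3 mutant lines from WT in log2(signal + 50), with standard errors, for each tested expansin gene (upper block) and XTH gene (lower block), in light (orange) and in darkness (blue). Members are in bold, filled points were called and dotted lines mark the size threshold. The expansins called for this mean are all lower in the mutants, from -1.06 to -3.77, whereas XTH32 is higher in darkness and XTH18 is lower in darkness and at 0.61 in light.

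Genes on either side of wall loosening were thinly covered by probe sets naming 1 gene. CSLC4, which makes the glucan backbone of xyloglucan, fell in both conditions, at -1.21 ± 0.19 (light) and -1.17 ± 0.19 (darkness), with limma adjusted p at most 5.99e-06. The dark value of CSLC4 fell short of the size threshold without WT dark replicate 3, at -0.99, and with an offset of 150, at -0.98, and the light call was lost with the actin ratio as covariate, at -0.89. COB, which encodes a surface protein that orients cellulose deposition, gave 0.15 ± 0.19 in darkness and -0.89 ± 0.19 in light for the mean of the lines, neither of which was called. It fell in csn4 in light (-1.30 ± 0.24, limma adjusted p = 6.47e-05). Its interaction was called lower over the mean of the lines (-1.04 ± 0.27, 0.00418), a call lost without WT dark replicate 2 (-0.93), WT light replicate 2 (-0.998), csn4 light replicate 2 (-0.90), csn5-labelled dark replicate 1 (-0.999) or csn5-labelled light replicate 1 (-0.98), with an offset of 150 (-0.989) and with the actin ratio as covariate (-0.815). ADPG1, a polygalacturonase that cuts pectin, gave 0.26 ± 0.30 in darkness and 0.94 ± 0.30 in light for the mean of the lines, neither of which was called, and rose in csn4 in light (1.03 ± 0.37, limma adjusted p = 0.0245). In light that mean passed without WT light replicate 3 (1.11), csn4 light replicate 3 (1.05) or csn5-labelled light replicate 3 (1.02). No WT array of ADPG1 was above 81.3, so it passed the filter through mutant arrays, which favoured a rise in advance. HYH, a bZIP transcription factor of the light response and the 1 measured gene of 31 listed regulators of elongation growth, rose by 2.79 ± 0.19 on the log2 scale in dark-grown and by 1.84 ± 0.19 in light-grown mutants (limma adjusted p at most 7.2e-09).

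Root markers moved with the members. For the mean of the lines all 3 root tissue genes measured, of 17 listed, fell in both conditions, where 11.7% of all tested probe sets were called lower in darkness and 9.21% in light. The list was chosen with earlier results of these data known, so its count beside those shares is no test. PYK10, a beta-glucosidase of root ER bodies, had log2 differences of -1.84 ± 0.14 in darkness and -1.56 ± 0.14 in light, PER57, a peroxidase, -2.69 ± 0.24 and -1.19 ± 0.24, and PER44, another peroxidase, -2.03 ± 0.33 and -1.72 ± 0.33 (limma adjusted p at most 0.000184). In csn3 in light 2 of the 3 were called, and PER57 gave -0.498 ± 0.30. For the mean of the lines in light, the PER57 call was lost with an offset of 150, at -0.989. The summed signal of the 3 root tissue genes ran from 4621 to 8163 in csn light arrays against 17220 to 17981 in WT light, and from 4481 to 8898 in csn dark arrays against 23956 to 26968 in WT dark. Of 34 listed root hair genes, 3 other than EXPA18 were measured, and their sum ran from 769.6 to 1150.2 in csn light arrays against 1900.3 to 1994 in WT light, and from 715 to 1209 in csn dark arrays against 2112 to 2570.2 in WT dark. SCN1, which confines root hair outgrowth to a single site on the cell, carried most of that sum and fell, at -1.27 ± 0.13 in darkness and -1.09 ± 0.13 in light (limma adjusted p at most 5.37e-08). XTH26 was too dim to be tested. No root tissue marker stood at 0, and the lowest single signal was 5.9, of PER44 in a csn5-labelled dark array. In whole seedlings, fewer cells of a type and less RNA per cell cannot be told apart, and the part of root content in the members' values was not tested.

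Of 13 listed shoot and leaf markers, 3 were measured and 2 tested. SPCH and FMA, factors of the stomatal lineage, gave 0.96 ± 0.31 (limma adjusted p = 0.011) and 0.11 ± 0.27 in darkness for the mean of the lines, neither of which passed. SPCH rose in dark-grown csn4 (1.09 ± 0.38, limma adjusted p = 0.0199) and csn5-labelled seedlings (1.03 ± 0.38, 0.0293). Most of these signals lay under the filter level of 100. They ran from 5.0 to 42.7 in WT dark, from 61.7 to 167.5 in csn4 dark and from 72.8 to 105.8 in csn5-labelled dark arrays. The SPCH mean over the lines passed without WT dark replicate 1 (1.17), csn3 dark replicate 1 (1.02) or 3 (1.07), or csn4 dark replicate 3 (1.03). In light SPCH gave -0.54 ± 0.31, and FMA fell by 1.03 ± 0.27 (limma adjusted p = 0.00246), a call lost without csn4 light replicate 2 (-0.996) or 3 (-0.99), WT light replicate 1 (-0.94) or csn5-labelled light replicate 1 (-0.94). The FMA call was also lost with the actin ratio as covariate (-0.978), without the arrays of a ratio above 20 (-0.996) and with an offset of 150 (-0.669). The sum of SPCH, FMA and CLV3 ran from 145 to 329 in csn light arrays against 336 to 411 in WT light, and from 102 to 424 in csn dark arrays against 72.9 to 198 in WT dark. In light every csn sum thus lay below every WT sum, as it did for the root lists, and in darkness the ranges overlapped.

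The actin ratio was higher in every csn light array than in the WT light arrays. Of 2 alternative fits, 1 used the ratio as a covariate and 1 left out the arrays of highest ratio. WT dark replicate 2 had an actin ratio of 21.3, within the range of the csn dark arrays, and its signal was between those of the other WT dark arrays for EXPA8 (1676) and EXPA18 (299.5) and the lowest of the 3 for XTH19 (1379) and EXPA4 (801). With the ratio as a covariate the dark differences of the mean of the lines stayed past both thresholds for all 4 members, and EXPA18 in light lost its call, at -1.02. Without the 3 arrays of a ratio above 20 the members' differences of the mean of the lines from WT also kept their calls in both conditions. That fit leaves out WT dark replicate 2, and in both conditions every remaining csn array had a higher ratio than every remaining WT array. It therefore cannot tell the ratio apart from the genotype.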

How the data were processed

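The deposited table held linear MAS5 signal intensities made by the authors, 1 column per array, per the submitters' processing notes. Its version and scaling target are not given in the sources used here, and detection calls were not used. RNA from whole seedlings was extracted with silica columns and labelled with biotin, per the labels' protocols. Every one of the 24 columns was matched to its sample by identifier, and 0 were set aside.

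Arrays were brought to a common 2% trimmed mean of 500 and converted to log2(signal + 50). Of 22746 probe sets other than 64 controls, the 18751 reaching 100 in 3 or more arrays entered the fit. In it, limma 3.58.1 (R 4.3.3; lmFit, eBayes with an intensity trend) estimated 1 mean for each group from all 24 arrays. Calls needed a Benjamini-Hochberg adjusted p below 0.05 over every tested probe set together with a log2 difference reaching 1 in either direction. Adjusted p-values are those of limma. Errors of signals are SD over arrays, and the number of arrays limits the precision. Pearson correlations between arrays of 1 group were 0.884 to 0.988, and no 2 arrays were identical. The fit was tested on simulated data.

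Gene names are those of the supplied platform table, with symbols from a TAIR10.1 gene table that served only for names and neighbours. Of the probe sets, 13513 named 1 gene and 503 several. No genome build was named for the values, so no coordinates are given. A csn3 dark array whose title repeats replicate number 1 is called replicate 3. Same-numbered arrays of different groups did not deviate together (median correlation 0.0141 over 84 pairs, from -0.339 to 0.38), so the numbers were not used as pairs.

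The members and the 8 gene lists (191 genes) were chosen with earlier results of these data known. The text names the 4 members, from each list up to 4 other genes with the smallest adjusted p for the mean of the lines in each growth condition, and for each member the 3 probe sets with the most similar group means; EXPB1, and genes named only for their place in the family or beside a marker sum, fall outside that rule. Alternatives covered quantile normalization, offsets of 16 and 150, the filter, the trend, the arrays fitted, the actin ratio, a replicate block and leaving out each array.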

Additional observations from a re-analysis of the deposited data

Results flagged for a closer look

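Differences between mutants and WT that themselves differed between light and darkness, by limma's interaction term, were singled out among the members and the genes named from the expansin and XTH lists. For XTH19 the interaction was 1.48 over the mean of the lines, 1.70 in csn3 and 1.94 in csn5-labelled seedlings, so the deficit against WT was smaller in light. For its neighbour XTH18 it was 1.90 over the mean of the lines, with the mutants called lower than WT in darkness and not called in light. It was -1.496 for XTH16, which fell in light, and -1.29 for XTH32, which rose in darkness. Of all tested probe sets, 19.3% were called in either direction for the interaction of the mean of the lines. EXPA15 was called in csn3 (-1.029) and not for that mean. The csn3 and csn5-labelled values run across the ranges of sample numbers through the WT arrays, and csn4 alone gave 1.49 for XTH18, 0.81 for XTH19, -0.95 for XTH16 and -1.42 for XTH32. Of these 4 the XTH18 and XTH32 values were called.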

How the results depend on the processing

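Of 2436 values of 74 member results under alternatives, 2317 kept their direction and side of the threshold, 44 lost a call, 31 gained a call and 44 changed sign. No called value changed sign. All differences of EXPA4 and EXPA8 from WT kept their calls under every alternative run, as did EXPA18 and XTH19 in darkness. The EXPA18 calls in light were lost with an offset of 150 (-0.59 for the mean of the lines) and with the actin ratio as covariate (-1.02), and in csn3 also with an offset of 16 (-1.655), and against WT light the dark lines' EXPA18 call was lost with the same choices (-0.69 and -1.19). The cause was not tested. The planned fit without arrays of an actin ratio above 3 was not run, since 21 of 24 arrays exceed it and 6 of 8 groups would be empty, and a limit of 20 was chosen after seeing the data. With the replicate block, members called between light and darkness in WT became 1, in the interaction 2 and between csn4 and csn5-labelled seedlings in darkness 0, and EXPA18 in csn4 light gained a call (-1.05). That call was also gained with quantile normalization (-1.315) and, at an unchanged value, with no trend and with only the groups compared. Spearman in place of Pearson gave 12 genes most like the members, of which 0 were shared.

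The single member call between csn4 and csn5-labelled seedlings in darkness became 0 with quantile normalization, offsets of 16 and 150, no filter, no trend, only the groups compared and the actin covariate. In WT light against dark, members called became 1 with an offset of 16, only the groups compared, the actin covariate and the limit of 20, and in the csn5-labelled interaction 2 with only the groups compared. Other expansins called lower in darkness were 2 with an offset of 150, and in light 4 with quantile normalization, the actin covariate and the limit of 20 and 5 with an offset of 16. With that offset 1 expansin was called higher in each condition. Root hair genes called lower in darkness were 2 with quantile normalization or an offset of 16, and 2 in light with that offset. Root tissue genes called lower in light were 2 with an offset of 150.

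Sign changes with the actin covariate were XTH19 csn4 against csn5-labelled in light (0.042), the EXPA4 interaction in csn4 (0.223) and csn5-labelled seedlings (0.259) and EXPA4 light against dark in csn3 (-0.044). With the limit of 20 they were XTH19 csn3 against csn4 in light (0.024), the same EXPA4 interactions (0.211 and 0.396) and EXPA4 in csn3 (-0.251). Quantile normalization turned XTH19 csn3 against csn5-labelled in darkness (-0.007), and an offset of 150 the EXPA4 interaction in csn5-labelled seedlings (0.002).

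Leaving out each array in turn, 24 settings, turned the sign of small uncalled values. The EXPA4 interaction ran from -0.375 to 0.511 for the mean of the lines, from -0.084 to 0.816 in csn3, from -0.565 to 0.321 in csn4 and from -0.49 to 0.396 in csn5-labelled seedlings. Light against dark ran for EXPA4 from -0.251 to 0.481 in csn3, from -0.579 to 0.097 in csn4 and from -0.618 to 0.268 in WT, for EXPA18 from -0.184 to 0.426 in csn3, from -0.234 to 0.534 in csn4 and from -0.233 to 0.64 in csn5-labelled seedlings, for EXPA8 in csn5-labelled seedlings from -0.274 to 0.545, and for XTH19 in csn4 from -0.686 to 0.152. XTH19 ran from -0.452 to 0.064 for csn3 against csn4 in light, from -0.18 to 0.327 for csn3 against csn5-labelled in darkness and from -0.215 to 0.3 for csn4 against csn5-labelled in light. Members called ran from 0 to 1 for csn3 against csn4 and csn4 against csn5-labelled in darkness and for light against dark in WT and csn5-labelled seedlings, and from 1 to 2 for the interaction of the mean of the lines and of the csn5-labelled line. Other expansins called ran from 0 to 1 higher in darkness and from 2 to 4 lower in light, and root hair genes called lower in darkness from 1 to 2.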
